A study of Mus musculus with 6 samples.

Results

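The genes described here are 39 mouse genes for apolipoproteins, for the enzymes and receptors that handle lipoproteins, and for the carrier proteins of blood plasma. They were taken by symbol from a fixed list, and all 39 were found among the 55487 gene rows of the count tables. The libraries came from hepatocytes, the main secretory cells of the liver, of mice 6 to 8 weeks old, with RNA taken 48 h after the cells were isolated. One group was homozygous for AEG-1-C75S, an allele of AEG-1 (the *Mtdh* gene) in which the cysteine that carries a palmitoyl group is replaced by serine, and the other was wild type (WT). Both genotypes were bred from heterozygous parents, and all samples carry the treatment label Control. There were 3 libraries per genotype. The labels do not give the strain, how the allele was made, or whether each library is from a different mouse, so p-values measure the spread between libraries, which may in part be technical.

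Lipoproteins are particles of lipid and protein that carry triglyceride and cholesterol through the blood. The hepatocyte builds very-low-density lipoprotein on 1 molecule of apolipoprotein B, adds lipid with the microsomal triglyceride transfer protein, and secretes the lipid-poor apolipoproteins from which high-density lipoprotein (HDL) forms. Lipases, transfer proteins and receptors then remodel and clear the particles. The same cell secretes most plasma carriers, among them albumin, the vitamin D binding protein, transthyretin and retinol binding protein.

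The libraries held 16944723 to 21044292 counts on genes, and the shallowest was C75S replicate 1. All 12 hepatocyte markers checked were detected in every library, with a summed level of 62945 to 78498 CPM (counts per 1000000 counts, scaled between libraries by TMM), most of it *Alb*, itself one of the 39 genes. The 9 Kupffer cell and macrophage markers summed to 96.2 to 140.0 CPM, nearly all of it *Cd68* (118 ± 21.8 CPM in C75S, 116 ± 16.2 CPM in WT); *Csf1r* was at 0.989 and 0.881 CPM, *C1qa* at 0.194 and 0.610 CPM, *Marco* at 0.316 and 0.048 CPM, and *Clec4f*, *Vsig4*, *Timd4*, *Cd5l* and *Adgre1* at group means of at most 0.128 CPM. Lymphocyte and neutrophil markers summed to at most 0.474 CPM in any library. *Mtdh* itself was at 199.6 ± 10.5 CPM in C75S against 196.6 ± 5.17 CPM in WT (SD over 3 libraries), with an edgeR adjusted p = 0.909; a gene count does not read the altered codon.

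The 39 genes together took 9.10%, 9.61% and 10.2% of all gene counts in C75S replicates 1, 2 and 3, and 9.77%, 10.5% and 10.3% in WT replicates 1, 2 and 3. The groups overlapped. Albumin made up most of this share: without *Alb* the other 38 genes took 3.56% ± 0.15 of the counts of C75S libraries and 3.49% ± 0.06 of those of WT libraries (SD, n = 3). By role, the albumin family held 6.87% ± 0.42 of gene counts in the C75S libraries and 7.48% ± 0.30 in the WT libraries, apolipoproteins B, C and E 1.06% ± 0.05 and 1.01% ± 0.03, and the 8 other apolipoproteins 0.803% ± 0.048 and 0.788% ± 0.038. The 4 inter-alpha-trypsin inhibitor heavy chains held 0.182% to 0.195% in the C75S libraries and 0.159% to 0.171% in the WT libraries, so these groups did not overlap. The shares of the 39 genes were given no test, since the genes were listed with results of these data known.

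**Figure D1:**
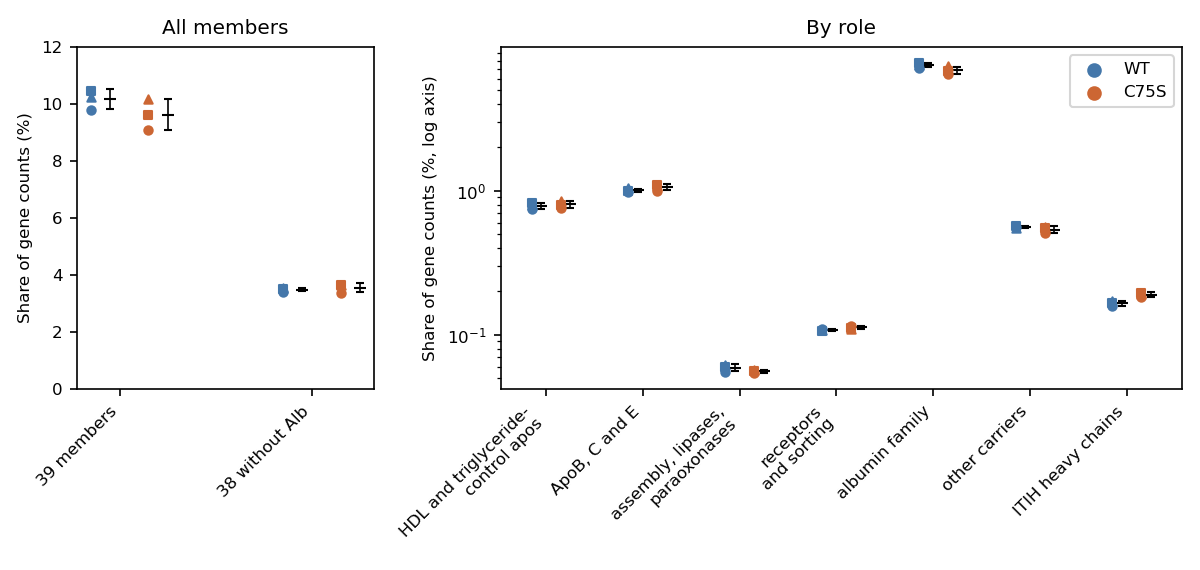
Share of all gene counts (%) held by the members in each library, for all 39 and the 38 without Alb (left, linear axis from 0) and by role (right, log axis). Circles, squares and triangles are replicates 1, 2 and 3, blue for WT and orange for C75S, and black bars give mean and SD (n = 3); most of the share is the albumin family, at 6.87% in C75S and 7.48% in WT.

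Levels between genes were compared per length, as TPM (transcripts per 1000000, counts divided by exon length). *Alb*, which encodes the main carrier of fatty acids and drugs in plasma, had the highest level of all genes in the tables, at 76690 ± 4562 TPM in C75S and 84769 ± 4213 TPM in WT. It was followed among the members by *Gc*, the vitamin D binding protein (12715 ± 499.6 and 12821 ± 71.1 TPM), *Apoa1*, the main protein of HDL (7912 ± 37.3 and 7550 ± 238 TPM), *Apoe*, a ligand of lipoprotein receptors (6923 ± 264 and 6349 ± 227 TPM), and *Apoa4*, a further HDL and chylomicron protein (5372 ± 545 and 5483 ± 510 TPM). The next members in order, *Ambp* and *Rbp4*, lay at 3734 and 3683 TPM over all libraries, and their ranges overlapped each other (3475 to 3972 TPM and 3341 to 4021 TPM). In the order of all genes these 5 leading members ranked 1, 9, 12, 15 and 20. At the other end, *Afp* lay at 7.02 ± 1.35 TPM in C75S and 4.34 ± 0.53 TPM in WT, *Pltp*, the phospholipid transfer protein, at 1.63 and 2.73 TPM, and *Lipg*, endothelial lipase, at 0.22 and 0.11 TPM, so members spanned more than 5 powers of 10.

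**Figure D2:**
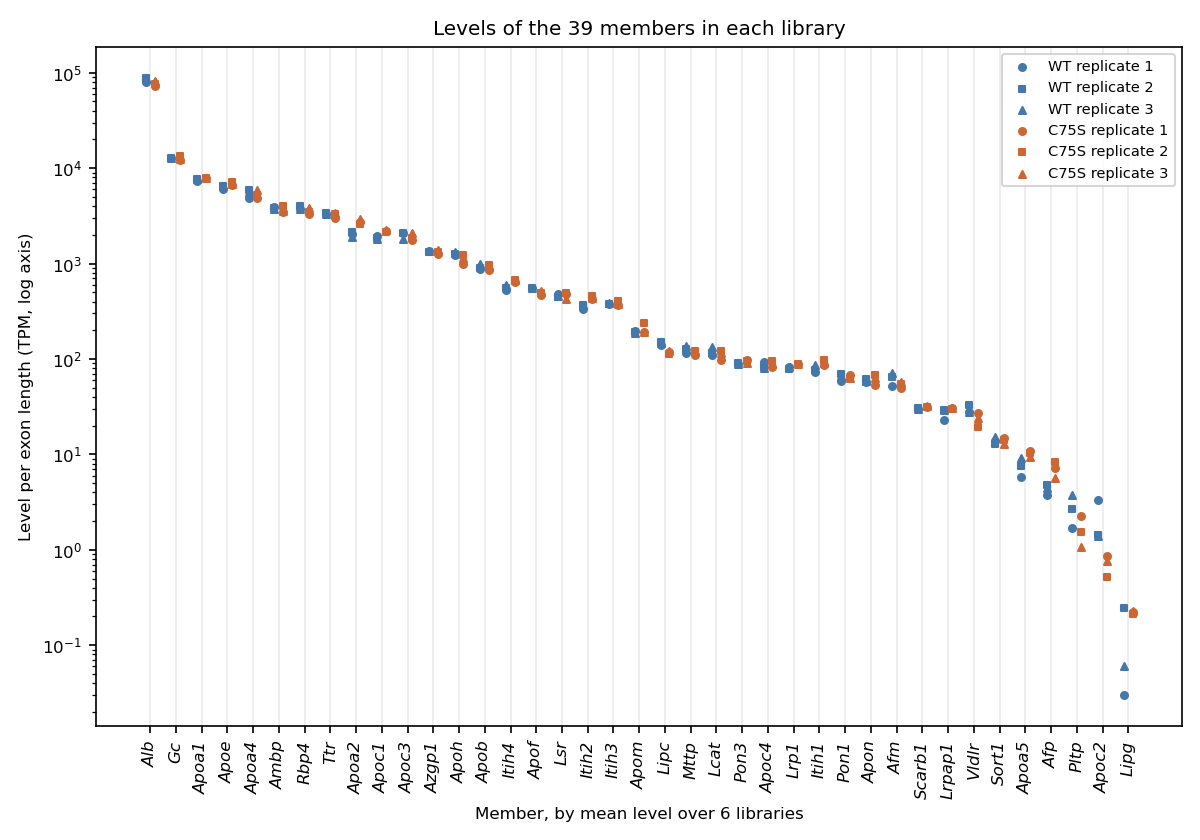
Level per exon length (TPM, log axis) of each of the 39 members in every library, ordered by the mean over all 6; blue symbols are WT and orange symbols C75S, and the symbol shape gives the replicate. Levels run from about 80729 TPM for Alb to 0.17 TPM for Lipg, and for most members the symbols of the genotypes lie close together.

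Between genotypes, 37 of the 39 genes had enough counts to be tested and 6 had an adjusted p-value under 0.05, with 5 higher in C75S (*Apoa2*, *Apoc1*, *Afp*, *Itih2*, *Itih4*) and 1 lower (*Lipc*). These p-values come from edgeR's quasi-likelihood test, two-sided, with Benjamini-Hochberg adjustment over all 12741 genes tested. Of all genes tested 3.11% were called, 1.74% as higher and 1.37% as lower, against 16.2% of the 37 tested members. At an unadjusted p under 0.05 there were 14 of the 37 members (37.8%), against 13.4% of all genes tested. The groups did not overlap for 12 of the 37 (32.4%), against 18.0% of all genes tested; every C75S library lay above every WT library for 8 members (9.02% of all genes) and below for 4 (8.96%). These comparisons with all genes were given no test, since the members were listed with results of these data known. Members were also not matched by level with the other genes tested. The median log2 fold change of the members was 0.004, with 19 estimates above 0 and 18 below. Over all genes tested the median was -0.003. Of the 31 members that were tested and not called, 28 had an approximate 95% interval (normal, from the standard error) that lay within a 1.5-fold change in either direction; the 3 exceptions were *Apoa5*, *Pltp* and *Vldlr*. In bulk RNA, fewer cells of a type and less RNA per cell cannot be told apart.

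**Figure D3:**
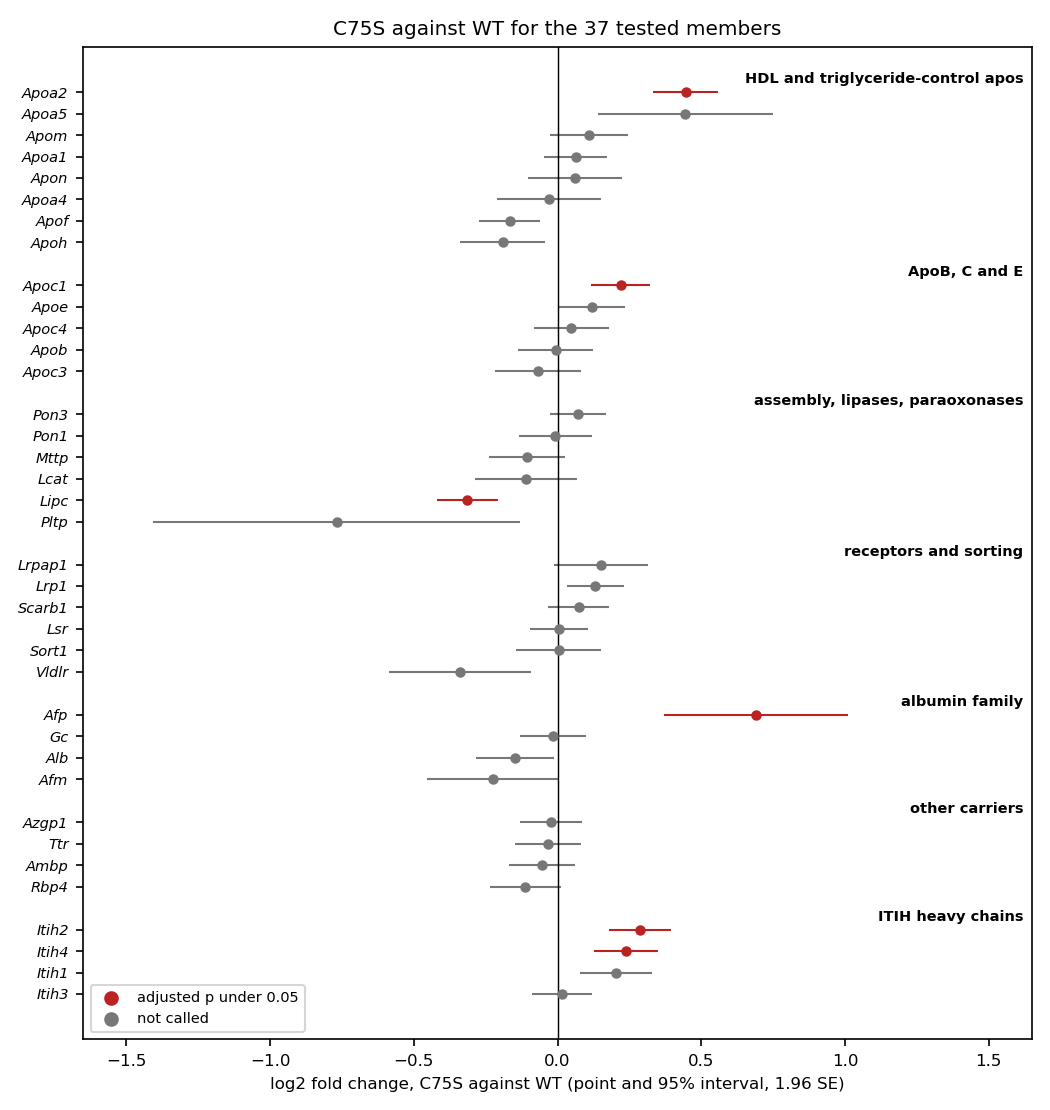
log2 fold change of C75S against WT for the 37 tested members, grouped by role, with points for the estimate and lines for the approximate 95% interval. Red marks the 6 members with an adjusted p under 0.05; 5 lie to the right of 0 and Lipc lies to the left.

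Among the apolipoproteins of HDL and of triglyceride control, 1 of 8 was called. *Apoa2* (ENSMUSG00000005681, chromosome 1, 171225054 to 171226379, plus strand of GRCm38), which encodes the second most abundant protein of HDL, was at 483, 473 and 549 CPM in C75S replicates 1, 2 and 3 and at 369.9, 385 and 349.7 CPM in the WT replicates. Every C75S library lay above every WT library. It rose 1.36-fold in C75S (95% interval 1.26 to 1.47; log2 fold change 0.45, SE 0.06, edgeR adjusted p = 2.91e-05), which ranked 24 by p-value among all genes tested. All 16 alternative fits kept the call (highest adjusted p 0.000628). *Apoa1* was at 3193, 3270 and 3417 CPM in C75S against 3023, 3187 and 3249 CPM in WT, and these groups overlapped. As a share of gene counts, without TMM scaling, they did not overlap (0.328% to 0.335% in C75S, 0.305% to 0.321% in WT). *Apoa1* was not called (1.04-fold, interval 0.967 to 1.13, edgeR adjusted p = 0.696). Per length there were 34.8, 33.3 and 36.98 *Apoa2* transcripts per 100 of *Apoa1* in C75S and 28.2, 27.8 and 24.8 in WT, so the ratio of these HDL proteins' transcripts was higher in every C75S library; it was chosen for view after the values were seen and was given no test.

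*Apoa1* and *Apoa2* are shown side by side by the bases before their start because the first was not called and the second was. Both are given 5′ to 3′ on the gene's strand (RefSeq, GRCm38.p6), as chr9:46228380-46228579 for *Apoa1* and chr1:171224804-171225053 for *Apoa2*. Capitals mark letters searched on both strands: TATAAA for the TATA box, GTTAAT as a piece of the HNF1 motif, TGTTTGC or else TGTTTAC for the FOXA factors, CAAAGTCCA for HNF4 and TTGCNNAA for C/EBP. The *Apoa1* stretch stops at the GENCODE gene start, which lies before the RefSeq start.
Apoa1: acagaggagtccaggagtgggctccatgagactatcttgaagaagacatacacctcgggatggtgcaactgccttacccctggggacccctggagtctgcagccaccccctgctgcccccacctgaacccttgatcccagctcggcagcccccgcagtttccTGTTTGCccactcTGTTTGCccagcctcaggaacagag
Apoa2: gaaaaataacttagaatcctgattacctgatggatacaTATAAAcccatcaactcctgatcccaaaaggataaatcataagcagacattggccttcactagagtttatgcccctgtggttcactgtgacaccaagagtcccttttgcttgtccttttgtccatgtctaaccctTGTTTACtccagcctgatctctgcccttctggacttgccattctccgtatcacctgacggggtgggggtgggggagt
The *Apoa1* stretch holds TGTTTGC at 2 places and the *Apoa2* stretch holds TGTTTAC and TATAAA. The TATAAA of *Apoa2* lies 212 to 207 bases before the start. In all 32851 promoter windows of 250 bases, TGTTTGC was found in 4.30%, TGTTTAC in 3.17% and TATAAA in 12.4%. These are matches of letters and no sign of binding.

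The other 6 members of this group were not called. *Apoa5*, an activator of triglyceride clearance, was scarce, at 8.95, 8.77 and 8.28 CPM in C75S against 4.93, 6.38 and 7.80 CPM in WT; the groups did not overlap, but the estimate of 1.36-fold had an interval of 1.10 to 1.68 and an edgeR adjusted p of 0.146. *Apof*, a lipid transfer inhibitor, was at 194, 206 and 227 CPM in C75S against 232, 234 and 239 CPM in WT (edgeR adjusted p = 0.104). *Apoh*, the phospholipid-binding beta-2-glycoprotein I, also lay lower in every C75S library, at 511 to 654 CPM against 656 to 715 CPM, with an edgeR adjusted p of 0.251. *Apoa4* varied most among the abundant members, at 2900, 3210 and 3760 CPM in C75S against 2998, 3628 and 3462 CPM in WT. *Apoa4*, *Apom*, which carries sphingosine-1-phosphate, and *Apon* overlapped between genotypes, with fold changes of 0.978, 1.08 and 1.04.

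Of apolipoprotein B and the exchangeable C and E apolipoproteins, 5 of 6 were tested and 1 was called. *Apoc1* (ENSMUSG00000040564, chromosome 7, 19689481 to 19692660, minus strand), an inhibitor of lipoprotein lipase and of particle uptake, was at 528, 532 and 579.8 CPM in C75S against 482, 469 and 457 CPM in WT, with no overlap. It rose 1.165-fold (interval 1.085 to 1.25, edgeR adjusted p = 0.017). Leaving out C75S replicate 3 (adjusted p = 0.113), WT replicate 2 (0.102) or WT replicate 3 (0.0892) ended the call. *Apoe*, its neighbour in the same cluster, was at 4688, 5177 and 5089 CPM in C75S against 4371, 4670 and 4719 CPM in WT, an overlap between groups. Its unscaled shares of gene counts did not overlap (0.482% to 0.519% in C75S, 0.441% to 0.466% in WT). *Apoe* was not called (1.09-fold, interval 1.00 to 1.18, edgeR adjusted p = 0.384). *Apob*, the structural protein of very-low-density lipoprotein, differed by 0.995-fold (interval 0.910 to 1.09), *Apoc3*, another lipase inhibitor, by 0.955-fold (0.861 to 1.06) and *Apoc4* by 1.03-fold (0.944 to 1.13).

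*Apoc2*, the activator of lipoprotein lipase, had 4, 3 and 4 counts in the C75S libraries and 19, 8 and 8 in the WT libraries, too few to be tested. Of its exon bases, 79.5% are shared with *Gm44805*, a protein-coding model on the same strand that spans *Apoc4* and *Apoc2*. Reads in that overlap are counted to neither gene in these tables, and *Gm44805* itself had 0 counts, so the counts do not measure the *Apoc2* transcript.

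Among genes of particle assembly, lipases, transfer proteins and paraoxonases, 6 of 7 were tested and 1 was called. *Lipc* (ENSMUSG00000032207, chromosome 9, 70798128 to 70952226, minus strand) encodes hepatic lipase, which hydrolyses triglyceride and phospholipid of HDL and of remnant particles. It was at 83.1, 82.3 and 90.1 CPM in C75S against 101, 109.7 and 107 CPM in WT, with every C75S library below every WT library. It fell to 0.805 of the WT level (interval 0.747 to 0.867; log2 fold change -0.31, SE 0.06, edgeR adjusted p = 0.000998). All 16 alternative fits kept the call (highest adjusted p 0.0177, without WT replicate 2). The gene's RefSeq promoter window held none of the searched letters.

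The other enzymes of this group were not called. *Mttp*, which loads lipid onto apolipoprotein B, was at 222 to 263 CPM in C75S against 238 to 287 CPM in WT (0.929-fold, interval 0.847 to 1.02). *Lcat*, which esterifies cholesterol on HDL, overlapped as well (0.927-fold, 0.820 to 1.05). The HDL-bound paraoxonases *Pon1* and *Pon3*, neighbours on chromosome 6, stood at 0.995-fold and 1.05-fold. *Pltp* was near the limit of testing, at 0.96 to 1.89 CPM in C75S against 1.47 to 3.30 CPM in WT, and its interval of 0.377 to 0.914 was wide (edgeR adjusted p = 0.271). *Lipg* had 6, 7 and 7 counts in C75S and 1, 8 and 2 in WT and was not tested.

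**Figure D4:**
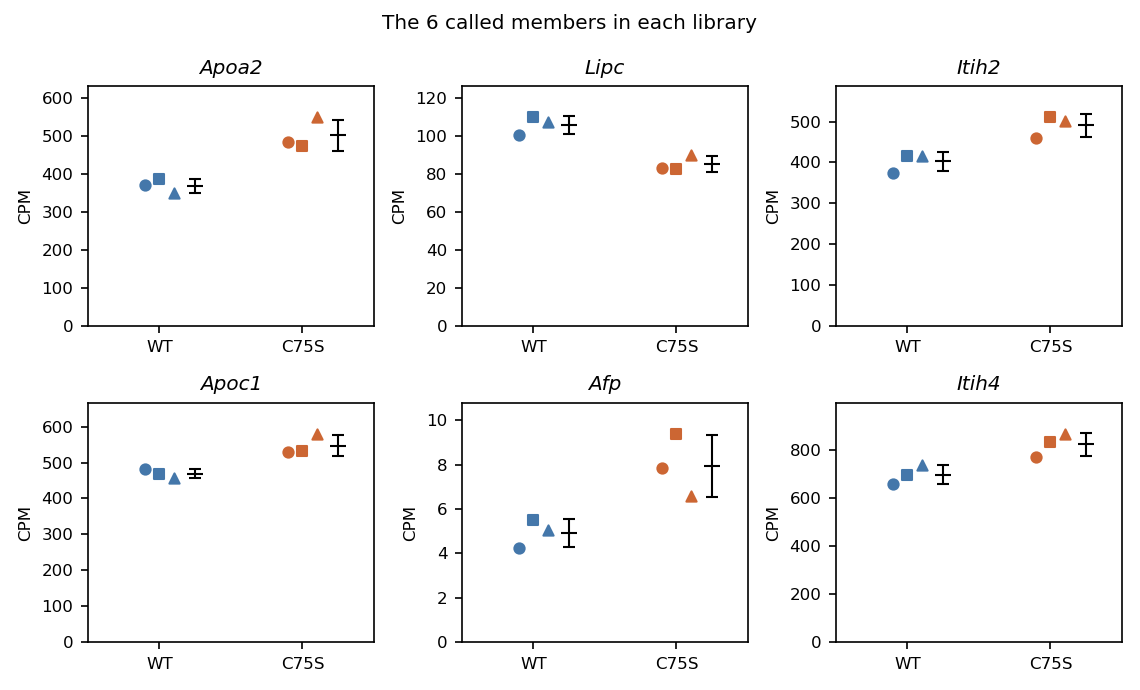
CPM (linear axes from 0) of the 6 called members in each library; circles, squares and triangles are replicates 1, 2 and 3, blue for WT and orange for C75S, and black bars give mean and SD (n = 3). In each panel the symbols of the genotypes do not overlap; for Apoa2 the C75S libraries lie at 473 to 549 CPM and the WT libraries at 349.7 to 385 CPM.

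None of the 6 lipoprotein receptors and sorting proteins was called in edgeR's test. An unadjusted p under 0.05 was found for 2 of them (*Lrp1* and *Vldlr*), against 13.4% of all genes tested. *Vldlr*, the very-low-density lipoprotein receptor, was at 89.2, 65.0 and 83.5 CPM in C75S against 94.8, 111 and 94.7 CPM in WT. Every C75S library lay below every WT library, but C75S replicate 2 stood well under the other C75S libraries, and the estimate of 0.790-fold (interval 0.665 to 0.938) had an edgeR adjusted p of 0.304. *Lrp1*, the large endocytic receptor for remnants, was at 517, 532 and 546 CPM in C75S against 489, 469 and 499 CPM in WT, with no overlap and an estimate of 1.095-fold (interval 1.02 to 1.17, edgeR adjusted p = 0.199). *Scarb1*, the HDL receptor, stood at 1.05-fold (0.978 to 1.13), the receptor chaperone *Lrpap1* at 1.11-fold (0.992 to 1.24), the sorting receptor *Sort1* at 1.00-fold (0.905 to 1.11) and *Lsr*, the lipolysis-stimulated receptor, at 1.00-fold (0.936 to 1.08). DESeq2 and limma-voom called none of the 6.

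In the albumin family, whose members descend from a common ancestor and of which 3 lie within 92.6 kb on chromosome 5, 1 of 4 was called. *Afp* (ENSMUSG00000054932, chromosome 5, 90490737 to 90508907, plus strand), the main plasma carrier of the fetus, is silenced in liver after birth. It was at 7.86, 9.38 and 6.57 CPM in C75S against 4.27, 5.50 and 5.04 CPM in WT, so all libraries held little of it and the C75S libraries held more. It rose 1.61-fold (interval 1.29 to 2.01; log2 fold change 0.69, SE 0.16, edgeR adjusted p = 0.017), the largest change among the called members. These levels rest on 90 to 198 counts per library. The call was lost without C75S replicate 2 (adjusted p = 0.147), WT replicate 1 (0.0729) or WT replicate 3 (0.0541).

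*Alb* was at 55591, 59651 and 66411 CPM in C75S against 63039, 70002 and 68200 CPM in WT. The groups overlapped, and the estimate of 0.903-fold (interval 0.821 to 0.992) was not called (edgeR adjusted p = 0.347). *Afm*, afamin, a vitamin E carrier, stood at 0.855-fold (0.731 to 1.00) and *Gc*, at 7407, 8208 and 8087 CPM in C75S against 7948, 8040 and 7987 CPM in WT, at 0.989-fold (0.913 to 1.07). Per length, *Afp* transcripts numbered 98.3, 109 and 68.8 per 1000000 of *Alb* in C75S and 47.1, 54.7 and 51.4 in WT. The other fetal liver genes listed with *Afp* did not pass the filter on low counts and were not tested. *H19* had 0 CPM in all libraries and *Igf2* at most 0.115 CPM. *Gpc3* was at 1.72, 0 and 1.12 CPM in C75S against 0, 0.049 and 0.049 CPM in WT, so the C75S libraries differed among themselves.

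*Alb* and *Afp*, which lie in tandem and gave estimates on opposite sides of 0, are shown by the 250 bases before their RefSeq starts, chr5:90460620-90460869 and chr5:90490464-90490713 (GRCm38.p6, plus strand, 5′ to 3′). Capitals mark the same searched letters.
Alb: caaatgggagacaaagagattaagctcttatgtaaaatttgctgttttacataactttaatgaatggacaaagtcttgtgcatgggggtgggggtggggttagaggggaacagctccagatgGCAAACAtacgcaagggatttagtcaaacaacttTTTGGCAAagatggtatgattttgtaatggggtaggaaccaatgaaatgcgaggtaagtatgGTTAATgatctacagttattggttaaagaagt
Afp: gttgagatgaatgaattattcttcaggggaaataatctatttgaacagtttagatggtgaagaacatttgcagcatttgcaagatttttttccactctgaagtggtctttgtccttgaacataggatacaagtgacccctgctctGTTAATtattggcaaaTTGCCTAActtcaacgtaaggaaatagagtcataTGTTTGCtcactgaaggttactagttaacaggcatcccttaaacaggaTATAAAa
Both stretches hold GTTAAT, the FOXA letters TGTTTGC and the C/EBP letters TTGCNNAA, on one strand or the other. The *Afp* stretch also holds the TATA box letters, 7 to 2 bases before the RefSeq start at 90490714. The GENCODE start of *Afp* lies further downstream, at 90490737. For *Alb* the RefSeq start is 90460870 and the GENCODE start 90460897. GTTAAT was found in 6.43% of all 32851 windows and TTGCNNAA in 9.56%; among 32 members with a window they were found in 7 and 8. The full HNF1 motif, CAAAGTCCA and TTGCGCAA were found in none of the 32, against 0.01%, 0.38% and 0.16% of all windows. As GTTAAT lies within the full HNF1 motif and TTGCGCAA fits TTGCNNAA, these searches overlap.

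None of the 4 other plasma carriers was called, and none had an unadjusted p under 0.05 in edgeR's test. *Ttr*, which carries thyroxine and retinol binding protein, was at 1179, 1321 and 1394 CPM in C75S against 1311, 1348 and 1329 CPM in WT (0.976-fold, interval 0.901 to 1.06). *Rbp4*, the retinol carrier, stood at 0.925-fold (0.849 to 1.01), *Ambp*, the precursor of alpha-1-microglobulin and bikunin, at 0.964-fold (0.890 to 1.04) and *Azgp1*, zinc-alpha-2-glycoprotein, at 0.984-fold (0.912 to 1.06). All 4 estimates were below 0 on the log2 scale, between -0.11 and -0.02.

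The heavy chains of inter-alpha-trypsin inhibitor are plasma proteins that become linked to hyaluronan of the extracellular matrix. Of the 4 measured, 2 were called, both higher in C75S, where 1.74% of all genes tested were called higher. The median log2 fold change of the 4 was 0.22, against -0.003 over all genes tested. *Itih2* (ENSMUSG00000037254, chromosome 2, 10094593 to 10131396, minus strand) was at 459, 510.5 and 502 CPM in C75S against 375, 416 and 417 CPM in WT, with no overlap. It rose 1.22-fold (interval 1.13 to 1.31; log2 fold change 0.29, SE 0.06, edgeR adjusted p = 0.0027), and 16 alternative fits kept the call (highest adjusted p 0.0248). *Itih4* (ENSMUSG00000021922, chromosome 14, 30886476 to 30902353, plus strand), an acute-phase member that is not linked to bikunin, was at 772, 834 and 869 CPM in C75S against 660.0, 698 and 739 CPM in WT, also with no overlap.

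*Itih4* rose 1.18-fold (interval 1.09 to 1.275, edgeR adjusted p = 0.018). Its call was lost without C75S replicate 2 (adjusted p = 0.0559), C75S replicate 3 (0.0929), WT replicate 1 (0.0908) or WT replicate 2 (0.105). *Itih1*, in the same cluster of chromosome 14, was at 92.4, 107 and 103 CPM in C75S against 81.3, 85.6 and 95.8 CPM in WT; C75S replicate 1 lay below WT replicate 3, and the estimate of 1.152-fold (interval 1.06 to 1.26) had an edgeR adjusted p of 0.0942. *Itih3*, between them, did not follow: it was at 442, 498 and 478 CPM in C75S against 455, 466 and 482 CPM in WT, a fold of 1.01 (0.941 to 1.09). Per length, there were 112 to 115 *Itih2* transcripts per 100 of *Itih3* in the C75S libraries and 90.4 to 97.8 in the WT libraries. For *Itih4* these ratios were 165 to 179 and 143 to 151.

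**Figure D5:**
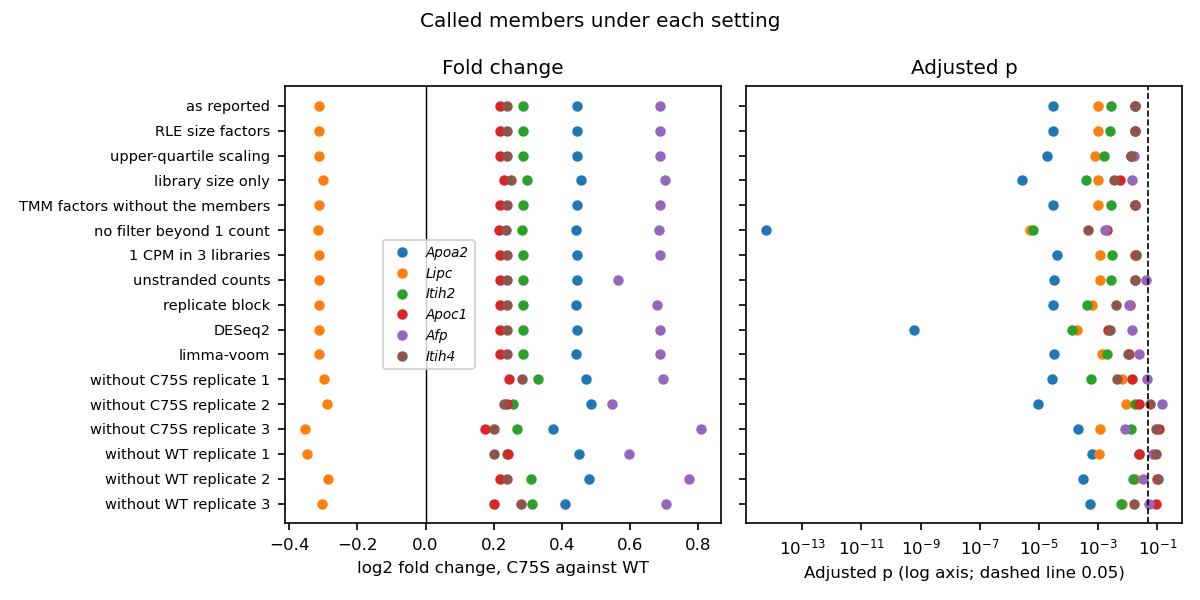
log2 fold change of C75S against WT (left) and adjusted p (right, log axis, dashed line at 0.05) of the 6 called members as reported and under 16 alternatives. No estimate crosses 0; Apoa2, Lipc and Itih2 stay left of the dashed line throughout, while Apoc1, Afp and Itih4 pass it in 3, 3 and 4 fits that leave out a library.

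Of the members, 18 lie in 6 clusters, and no cluster had more than 1 call. The cluster of *Apoa1*, *Apoc3*, *Apoa4* and *Apoa5* (chromosome 9, 43.3 kb) had 0 calls by edgeR with 1 member at an unadjusted p under 0.05 (*Apoa5*), and 0 by DESeq2 or limma-voom. The cluster of *Apoc2*, *Apoc4*, *Apoc1* and *Apoe* (chromosome 7, 27.6 kb) had 1 call, as did *Alb*, *Afp* and *Afm* (chromosome 5) and *Itih4*, *Itih3* and *Itih1* (chromosome 14, 56.8 kb). Within 100 kb of the 6 called members, 36 tests of neighbouring protein-coding genes gave 0 edgeR calls, where 3.11% of all genes tested were called. At that share so few tests cannot set the neighbours apart from other genes. *Apoa2* alone had 11 such neighbours, and some neighbours, such as *Alb* and *Apoe*, are themselves members.

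Members also varied together among the libraries of one genotype. C75S replicate 1 was the lowest of the 3 C75S libraries for 26 of the 37 tested members (70.3%), against 35.0% of all genes tested, and WT replicate 1 was the lowest WT library for 26 (70.3%), against 37.7%. *Alb*, *Apoa4*, *Apob* and *Rbp4* were among these members in both genotypes. C75S replicate 1 had the smallest depth, whereas WT replicate 1, with 20905998 counts, was the deepest of the WT libraries.

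Other genes of lipoprotein handling were taken from a list of 33 genes, of which 30 were tested. Of these, 2 were called higher and 1 lower, against 1.74% and 1.37% of all genes tested. The median log2 fold change of the list was -0.02. *Angptl4*, an inhibitor of lipoprotein lipase, was at 217, 239 and 235 CPM in C75S against 294, 249 and 259 CPM in WT, so every C75S library lay below every WT library. It fell by 0.21 on the log2 scale (SE 0.06, edgeR adjusted p = 0.042). The call was lost in 6 of 16 alternative fits, with library-size scaling, the replicate block, and without replicate 1 or 3 of either genotype (without WT replicate 1 the log2 fold change was -0.14 and the adjusted p 0.221). *P4hb*, a subunit of the microsomal transfer complex, was at 996 ± 45.7 CPM in C75S against 919.6 ± 27.3 CPM in WT and was not called (edgeR adjusted p = 0.340).

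Of 18 further plasma transport and binding proteins 16 were tested, 4 were called higher and 1 lower, with a median of 0.02. Over all genes tested 1.74% were called higher and 1.37% lower. *Serpina6*, corticosteroid-binding globulin, was at 3.13 ± 0.82 CPM in C75S against 0.820 ± 0.172 CPM in WT, with no overlap, and rose (log2 fold change 1.92, SE 0.31, edgeR adjusted p = 0.00034). *Hrg*, histidine-rich glycoprotein, rose from 40.0 ± 2.88 to 62.6 ± 5.98 CPM (0.65, edgeR adjusted p = 3.75e-06), *Fetub* from 83.8 ± 2.64 to 108 ± 10.3 CPM and *Orm2* from 82.2 ± 1.91 to 103 ± 8.74 CPM. The longest *Orm2* transcript is 91.0% identical to that of *Orm1*, so the split of its reads among copies is uncertain. *Ahsg*, fetuin-A, fell from 7880 ± 158 to 6782 ± 239 CPM (edgeR adjusted p = 0.0342), and it lost this call in the fits without replicate 1 or 2 of C75S or any 1 of the WT libraries (adjusted p up to 0.215). The abundant carriers *Selenop* and *Trf*, for selenium and iron, were at 13129 ± 647 and 7921 ± 325 CPM in C75S against 14133 ± 276 and 8064 ± 299.5 CPM in WT, and were not called; every C75S library lay below every WT library for *Selenop* (edgeR adjusted p = 0.472).

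Of 28 transcription regulators of apolipoprotein and albumin genes 27 were tested, 0 were called higher and 3 lower, with 20 estimates below 0 and a median of -0.06. Over all genes tested 1.37% were called lower, and 6479 of 12741 estimates lay below 0 with a median of -0.003. *Prox1* fell from 138 ± 4.03 to 119 ± 3.40 CPM (edgeR adjusted p = 0.018), *Rora* from 208 ± 2.66 to 181 ± 3.25 CPM (0.019) and *Mlxipl*, the carbohydrate-response factor ChREBP, from 205 ± 7.18 to 178 ± 5.80 CPM (0.0205). *Prox1* lost its call without replicate 1 of C75S or replicate 2 or 3 of WT, *Rora* without replicate 1 or 2 of C75S or replicate 2 of WT, and *Mlxipl* without replicate 2 or 3 of C75S or replicate 1 or 3 of WT, with an adjusted p up to 0.114. *Hnf4a*, a main activator of apolipoprotein genes, was at 554 ± 18.8 CPM in C75S against 579.5 ± 20.4 CPM in WT, and *Zbtb20*, a repressor of *Afp*, at 555 ± 8.57 and 578 ± 25.3 CPM, and neither was called. The *Afp* repressors *Zhx2* and *Zfhx3* were not called (edgeR adjusted p = 0.961 and 0.728).

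Markers of other states moved beside these results. Proliferation markers, summed over 6 genes, were at 52.3, 49.1 and 37.4 CPM in C75S against 31.2, 31.1 and 31.0 CPM in WT. Of 5 markers tested, 2 were called higher (*Mki67*, *Mcm3*), against 1.74% of all genes tested. The sum of 8 cholangiocyte markers was 181 to 237 CPM in C75S against 161 to 169 CPM in WT, with *Krt19* called among 6 tested, while *Cftr* had 0 counts in all libraries. Endothelial markers summed to 31.9 to 42.5 CPM in C75S and 30.2 to 41.2 CPM in WT, most of it *Stab2* (24.9 ± 4.88 and 26.4 ± 5.75 CPM). Of the 6 endothelial markers tested, 5 had estimates above 0 (median 0.51 on the log2 scale) and 0 were called. In edgeR's test 2 of the 6 had an unadjusted p under 0.05, against 13.4% of all genes tested. *Lyve1* (2.46 ± 0.47 and 1.36 ± 0.26 CPM), *Pecam1* (3.18 ± 0.53 and 1.97 ± 0.74 CPM) and *Kdr* (0.905 ± 0.162 and 0.561 ± 0.130 CPM) lay higher in every C75S library, as did 9.02% of all genes tested. Stellate cell markers summed to 53.5 to 70.1 CPM and 68.9 to 91.1 CPM, which overlapped. Most of the sum was *Reln* (58.7 ± 8.69 and 75.1 ± 11.5 CPM). Of the 4 tested, 1 had an estimate above 0 and 3 below, and 0 were called (0 at an unadjusted p under 0.05 in edgeR's test). *Des* (0.104 and 0.016 CPM) and *Hgf* (0.262 and 0.080 CPM), too scarce to be tested, lay higher in every C75S library. Of the 12 hepatocyte markers, *Cyp2e1*, a cytochrome P450, was called higher (113.5 ± 3.64 and 91.9 ± 10.5 CPM, edgeR adjusted p = 0.00907) and *G6pc*, glucose-6-phosphatase, lower (1.64 ± 0.53 and 3.40 ± 0.95 CPM, edgeR adjusted p = 0.0307). The part of these differences in the results for *Afp*, *Apoa2* and the other called members was not tested.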

How the data were processed

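RNA was sequenced from 6 hepatocyte libraries, 3 per genotype, grouped by their titles. The authors deposited raw counts per gene in the layout of STAR, unstranded and for each strand, and the submitters' processing notes name Trim Galore 0.6.6, STAR 2.7.9a, edgeR 3.36.0 and mm10/GRCm38. The annotation release is not given in the sources used here. Multimapping reads (17.98% to 18.5% of each library) and ambiguous reads (0.891% to 0.926%) are listed apart and were left out, as were unmapped reads (4.37% to 5.81%) and reads on no feature (4.99% to 5.55%). Reverse-strand counts were used. Of 55487 gene rows 55227 matched GENCODE M21, and 1 of 137 list genes matched through a synonym.

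Genes passing filterByExpr (minimum count 10, minimum total 15) were tested with edgeR 4.0.16 (R 4.3.3): TMM, robust quasi-likelihood F-test on genotype, Benjamini-Hochberg over 12741 genes, threshold 0.05. TPM used the summed exon length. The common biological coefficient of variation was 5.97%; replicate pairs differed by a chi-square per gene of 4.04 to 8.98. On simulated C75S-against-WT data for 12741 genes, 76% of 200 genes changed 1.5-fold were called and 7.88% of calls were false. Alternatives were other scalings and filters, DESeq2 1.42.0, limma-voom (limma 3.58.1), unstranded counts, a replicate block, and leaving out each library. Copies were sought with BLAST 2.17.0. The members and lists were chosen with earlier results of these data known. Named were all members, up to 4 called and the 2 most abundant uncalled genes per list, and *Mtdh*, except some genes that are not reported here; *Ahsg*, the marker genes, *Selenop*'s overlap and the ratios were added after their values were seen.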

Additional observations from a re-analysis of the deposited data

How the results depend on the processing

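The 396 genes called between genotypes stayed within 1.5 times that number under each alternative that kept all 6 libraries, and numbered 201 to 355 when a library was left out (253 without C75S replicate 1, 201 without WT replicate 2, 246 without WT replicate 3). Members called higher numbered 5 or 6 with all libraries and 3 to 6 when a library was left out. Members called lower numbered 1, or 1 to 2 with a library left out, but 5 without a filter on low counts, where *Apof*, *Apoh*, *Vldlr* and *Afm* joined *Lipc*; the cause was not tested. With the replicate block 480 genes, 6 members higher and 3 lower were called, *Itih1*, *Apoh* and *Afm* being added. Over all genes tested, same-numbered libraries did not deviate together (r across genes 0.05, -0.09 and 0.03 for numbers 1, 2 and 3). Not every library correlated best with its own number, so the numbers were not taken as pairs. Among the 37 tested members, replicate 1 was the lowest library for 26 in C75S and for 26 in WT. A shared effect of the number on the members was not tested. Estimates near 0 of uncalled members changed sign: with library-size scaling *Apob* to 0.0043 and *Pon1* to 0.005, and over the fits without 1 library *Apoa4* (-0.1383 to 0.0515), *Apob* (-0.0498 to 0.0644), *Apoc3* (-0.161 to 0.0059), *Sort1* (-0.0461 to 0.0722), *Gc* (-0.0443 to 0.0278), *Ttr* (-0.0885 to 0.03), *Ambp* (-0.1102 to 0.0037), *Azgp1* (-0.0779 to 0.0237), *Apon* (-0.0157 to 0.1678), *Apoc4* (-0.0079 to 0.1147), *Pon1* (-0.0785 to 0.0516), *Lsr* (-0.0286 to 0.0434) and *Itih3* (-0.0229 to 0.061). The difference in the members' summed share of counts, C75S minus WT, was -0.54 percentage points, -0.27 without C75S replicate 1 and -0.81 without C75S replicate 3. Depth limits *Lipg* and *Pltp*, with 3 counts equal to 0.143 to 0.177 CPM.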

Other observations

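The counting of reads by strand decides the level of some members. Summed over the 6 libraries, the unstranded counts of *Apoa4* were 42.1% of its reverse-strand counts and those of *Lsr* 37.6%. Exons of *Apoa4* overlap *Gm47528* and *Gm10680*, and those of *Lsr* overlap *Gm4673* (43.5% of its exon bases), on the opposite strand, and reads there are counted to no gene when strand is not used. The log2 fold change of *Apoa4* was -0.03 by either count, and that of *Lsr* 0.0054 by reverse-strand and 0.03 by unstranded counts. *Pltp* had 226 reverse-strand counts and 414 forward-strand counts, and 19.3% of its exon bases overlap *Ctsa*, an abundant lysosomal gene on the opposite strand at 4356 counts per library.

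*Afp* had 74 forward-strand counts, 9.67% of its reverse-strand counts, while the other members apart from *Pltp* had at most 1.04%. No gene of the annotation overlaps the exons of *Afp*. With unstranded counts the log2 fold change of *Afp* was 0.57, against 0.69, and its edgeR adjusted p was 0.0428.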
